A study of Caenorhabditis elegans with 2 samples.

Results

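The proteasome subunit genes of Caenorhabditis elegans were taken as the protein-coding genes on the nuclear chromosomes whose names start with pas-, pbs-, rpn- or rpt-, which gave 33 of 19973 genes. There were 14 genes of the core particle (7 pas- and 7 pbs- genes) and 19 of the regulatory particle, or cap (6 rpt- and 13 rpn- genes). RefSeq describes 31 of the 33 products as proteasome or proteasomal proteins. The rpn-5 product is described as a PCI domain protein and that of rpt-5 as a protease regulatory subunit. Binding was measured by chromatin immunoprecipitation and sequencing of T20F7.1, a protein with a C2H2-type zinc finger domain per RefSeq, in whole L4 larvae. The animals were of mixed sex, 48 hours old, and had been synchronised as starved L1 larvae after bleaching. There was 1 group of 2 biological replicates, from strain OP754, which carries the insertion wgIs754 (T20F7.1::TY1::EGFP::3xFLAG with unc-119(+)) in the unc-119 (tm4063) background. The antibody was directed against GFP, so the measurement is of the tagged transgene product in whole animals and assigns no binding to a tissue. Which promoter drives the transgene is unknown here. No control immunoprecipitation was analysed here.

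The proteasome degrades proteins that carry ubiquitin. Its core particle is a barrel of outer alpha rings (pas- genes), which gate the entry, and inner beta rings (pbs- genes), some of whose subunits cut the substrate. The cap has a base, in which the rpt- ATPases unfold the substrate, and a lid of rpn- subunits, which removes ubiquitin. In C. elegans the transcription factor SKN-1 raises the expression of proteasome genes when the proteasome is impaired.

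A peak was given to a gene when its summit lay from 500 bp upstream to 100 bp downstream of the annotated gene start. The peaks are the 2586 that the authors retained by the irreproducible discovery rate (IDR) procedure. The bases around the summits of 5 member peaks are shown so that the words counted later can be seen in place. They are those of the strongest member peaks (rpt-2, rpn-3, rpn-13, pas-6 and rpt-1) among those whose sequence could be printed. Each window of 101 bases is centred on the summit, is read on the plus strand of ce11 from the RefSeq WBcel235 sequence, and overlaps no annotated untranslated region. Capitals mark 6 words on either strand that were taken from an earlier account of these data. They are ACGCGC, then its relative ACGCAG, then the overlapping word GACGCA, further the word ACACTC, and finally the words CGTCTC as well as AGAGAC, which share letters on opposite strands. The windows lie at chrV:6017764-6017864, chrIII:8447103-8447203, chrIII:6342199-6342299, chrV:5584653-5584753 and chrV:11982507-11982607, in the order printed.
rpt-2: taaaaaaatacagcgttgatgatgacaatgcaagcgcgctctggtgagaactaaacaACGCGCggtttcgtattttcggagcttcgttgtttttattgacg
rpn-3: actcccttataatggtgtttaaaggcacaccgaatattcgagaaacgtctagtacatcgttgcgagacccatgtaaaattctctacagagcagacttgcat
rpn-13: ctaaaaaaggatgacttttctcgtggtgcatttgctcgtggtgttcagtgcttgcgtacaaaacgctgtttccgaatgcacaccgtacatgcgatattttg
pas-6: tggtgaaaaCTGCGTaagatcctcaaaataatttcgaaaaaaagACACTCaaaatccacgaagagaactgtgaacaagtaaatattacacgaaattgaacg
rpt-1: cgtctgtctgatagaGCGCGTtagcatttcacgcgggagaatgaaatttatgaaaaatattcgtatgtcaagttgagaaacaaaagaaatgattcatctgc
The window of rpt-2 has ACGCGC with its centre 10 bp from the summit. That of pas-6 has ACGCAG on the reverse strand 38 bp away and ACACTC 4 bp away, and that of rpt-1 has ACGCGC on the reverse strand 32 bp away. The windows of rpn-3 and rpn-13 hold none of these words.

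Of the 33 proteasome genes, 13 (39.4%) had an IDR peak in the promoter window, against 1460 of 19973 protein-coding genes (7.31%). Each of the 13 genes had 1 peak, and no peak served a pair of proteasome genes. The peaks belonged to the alpha ring genes pas-3, pas-4 and pas-6, the beta ring genes pbs-2 and pbs-7, the base genes rpt-1, rpt-2, rpt-5 and rpn-13, and the lid genes rpn-3, rpn-6.1, rpn-7 and rpn-8. Peaks were thus found at 5 of 14 core genes (35.7%) and 8 of 19 cap genes (42.1%). By module they were found at 3 of 7 alpha ring, 2 of 7 beta ring, 4 of 10 base and 4 of 9 lid genes. The modules are small, and no test between them was made. The count depends on the window: from 250 bp upstream to 50 bp downstream, 5 of the 33 genes kept a peak, against 4.54% of all protein-coding genes.

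Signal values are those given in the authors' peak lists, used here to rank and describe peaks. Their scale is not given in the sources used here. Values in the IDR list come from the pooled replicates and are about the sum of the single-replicate values. They had a minimum of 95.6, a median of 144 and a maximum of 6064 over all IDR peaks. The lists of single replicates hold 30000 candidate regions each, with median signal values of 25.6 in replicate 1 and 27.6 in replicate 2.

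Among the core genes, the alpha ring gene pas-4 had the strongest peak, with signal values of 856 and 836 in replicates 1 and 2 and 1695 in the IDR list (rank 37 of 2586). The beta ring gene pbs-2 followed, with 598 and 620 in replicates 1 and 2 and 1216 in the IDR list (rank 74). The beta ring gene pbs-7 had 128 and 118 in replicates 1 and 2 and 241 in the IDR list (rank 600). In both replicates these 3 genes stood in the same order and well above the other core genes. The alpha ring gene pas-3 had only 48.5 and 60.8 in replicates 1 and 2 (110 in the IDR list, rank 1978). The alpha ring gene pas-6 had 46.3 and 54.1 in replicates 1 and 2 (101, rank 2316). Both of these weak peaks fell outside the 2586 strongest regions of replicate 1. They were therefore lost when replicate 1 alone, cut to the size of the IDR list, was used.

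Among the cap genes, the ATPase gene rpt-2 had the strongest peak of the whole family, with 1275 and 1207 in replicates 1 and 2 and 2484 in the IDR list (rank 12). The lid gene rpn-3 had 348 and 325 in replicates 1 and 2 and 683 in the IDR list (rank 208). Together with pas-4 and pbs-2 these were the 4 member peaks within the strongest 10% of the IDR list (30.8% of 13 peaks, against 18% of all 1188 promoter peaks). The lid gene rpn-6.1, whose yeast and mammalian counterpart clamps the lid to the core and which in C. elegans raises resistance to proteotoxic stress when overexpressed, had 107 and 94.2 in replicates 1 and 2 (207, rank 748). Its paralog rpn-6.2 had no IDR peak and no candidate region in either replicate. The ubiquitin receptor gene rpn-13 had 69.7 and 84.8 in replicates 1 and 2 (159, rank 1089).

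The remaining 4 cap genes had weak peaks. The lid gene rpn-8, whose yeast counterpart pairs with the deubiquitinating subunit, had 62.2 and 62.4 in replicates 1 and 2 (132 in the IDR list, rank 1482). The ATPase gene rpt-5 had 55.2 and 62.5 in replicates 1 and 2 (117, rank 1777). The ATPase gene rpt-1 had 58 and 37.7 in replicates 1 and 2 (96.8, rank 2511), and the lid gene rpn-7 had 53.8 and 41.9 (96.6, rank 2523). The peaks of rpt-1 and rpn-7 lay within 3 units of the weakest IDR peak. In replicate 2 their candidate regions ranked 6342 (rpt-1) and 4577 (rpn-7), outside the 2586 strongest of that replicate. Both were therefore lost when replicate 2 alone, cut to the size of the IDR list, was used.

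**Figure D1:**
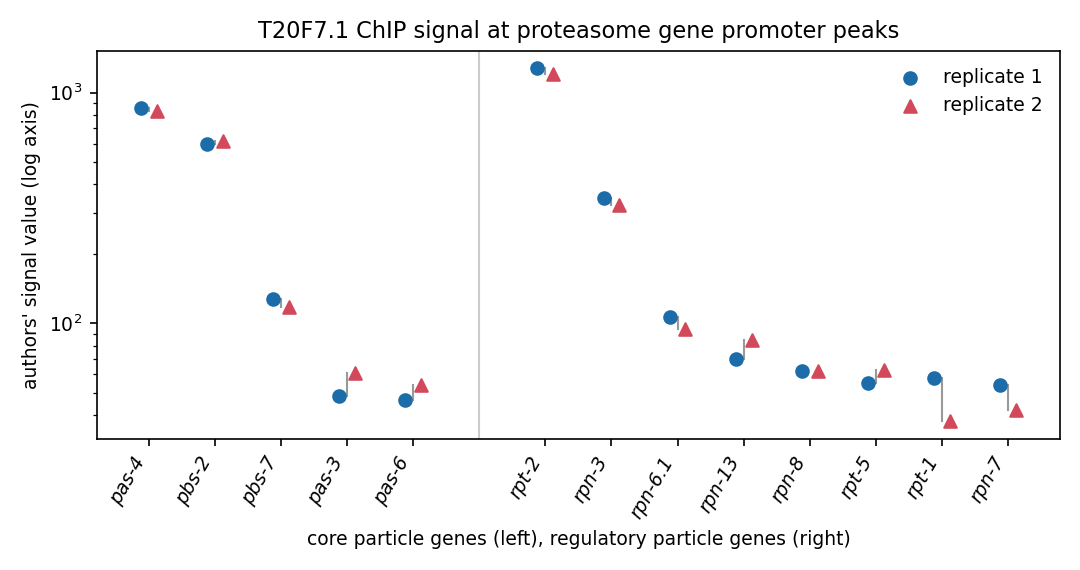
Signal value (log axis) of each proteasome gene promoter peak in replicate 1 (circles) and replicate 2 (triangles), with core genes left and cap genes right and grey vertical lines spanning the gap between replicates. The peaks of rpt-2, pas-4, pbs-2 and rpn-3 stand above 300 in both replicates, and rpt-1 and rpn-7 show a gap between the replicates.

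Across the 13 peaks the median signal value in the IDR list was 159, against 174 for all promoter peaks, and the strongest was 25.7 times the weakest. The core peaks had a median of 241 (range 101 to 1695) and the cap peaks a median of 145 (range 96.6 to 2484), so the ranges overlapped almost entirely. Of the 13 peaks, 7 (53.8%) lay in the stronger 50% of the IDR list, against 61.7% of all promoter peaks. The same 7 reached 2 or more for the authors' deposited −log10 q-value (53.8%, against 57.9% of promoter peaks). The member peaks thus spanned most of the range of ranks in the IDR list. With the window from 250 bp upstream to 50 bp downstream, the median signal value of the 5 remaining member peaks was 683. The plot of signal value against rank shows the members on the curve of all IDR peaks.

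**Figure D2:**
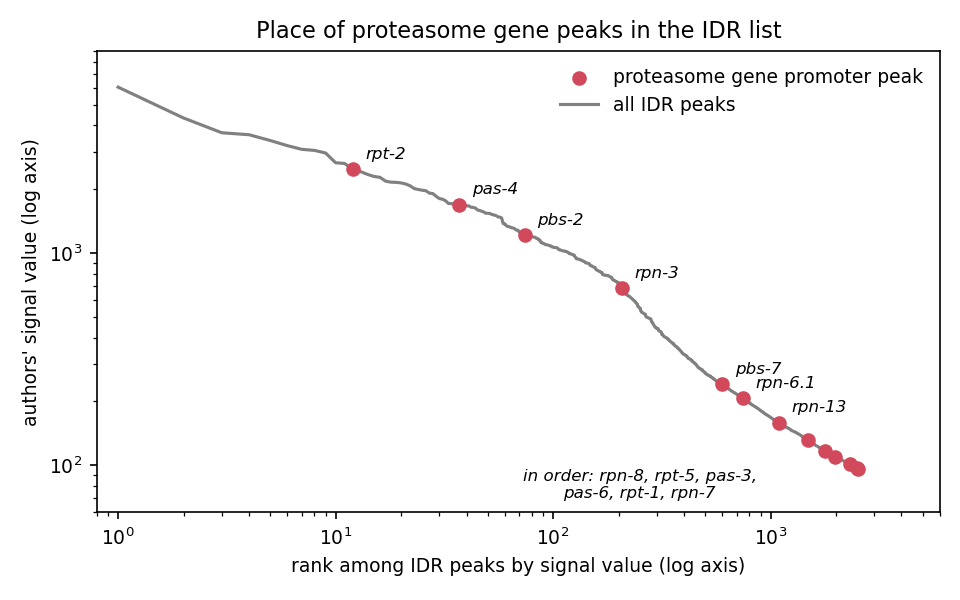
Signal value against rank (both log axes) for the promoter peaks of proteasome genes (red points) and all IDR peaks (grey line). The members run from rank 12 (rpt-2) to rank 2523 (rpn-7), with the last 6 crowded at the lower end.

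The replicates gave close values for the strong member peaks and wider ones for the weak. The log2 ratio of replicate 2 to replicate 1 lay between -0.11 and 0.05 for the 5 strongest (rpt-2, pas-4, pbs-2, rpn-3 and pbs-7). These 5 stood in the same order in both replicates. For the other 8 peaks the ratio lay between -0.62 (rpt-1) and 0.33 (pas-3). The median over the 13 peaks was -0.04 (SD 0.26), against 0.03 (SD 0.47) over the 2442 IDR peaks matched in both replicates. Replicate 2 was higher at 6 members and replicate 1 at 7. The candidates were matched by summits within 100 bp. Summit positions differed by at most 26 bp in replicate 1. In replicate 2 they differed by 91 bp for rpn-7, 84 bp for rpt-5, 53 bp for pas-6 and 51 bp for rpn-6.1. These matches are less certain, and 9 of the 13 peaks were matched within 50 bp. Of the 13 peaks, 9 were among the 2586 strongest regions of both replicates.

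**Figure D3:**
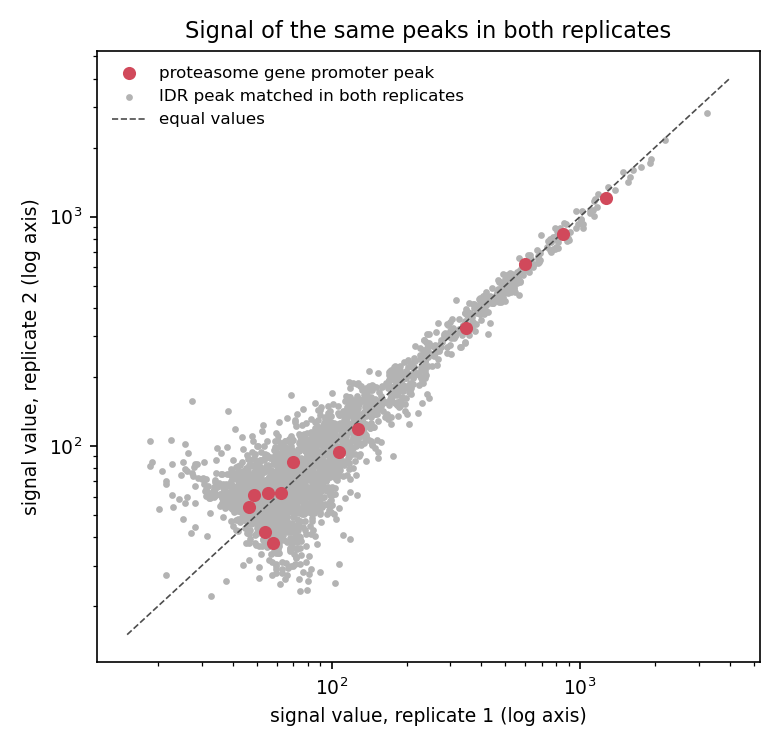
Signal value in replicate 2 against replicate 1 (both log axes) for proteasome gene promoter peaks (red) and all IDR peaks matched in both replicates (grey), with a dashed line of equal values. The members lie close to the line at high values and spread out below 100.

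All 13 summits lay upstream of the gene start, from 115 bp (pbs-7) to 375 bp (rpt-5). Over all pairs of a gene and a promoter peak, 93.7% of the summits lay upstream. The median was 304 bp upstream, whereas over all 1487 such pairs it was 191 bp (quartiles 102 and 304 bp). At 7 members (53.8%) the summit was 300 bp or more upstream, against 26% of all such pairs. The strong peaks of rpt-2 (145 bp), pas-4 (148 bp) and rpn-3 (200 bp) were among the nearer ones, while that of pbs-2 was 336 bp away. Annotated starts of C. elegans genes often mark a trans-splice site rather than the start of transcription, so these distances are to the annotation. The summits stood outside protein-coding genes at 11 members, in a coding exon of the neighbour use-1 at pas-3 and in an intron of the neighbour F57B9.1 at rpn-6.1. Noncoding genes did not enter this placement. The summits of rpt-2, pas-4 and rpn-3 also lay in the windows of the noncoding RNA genes F29G9.10, C36B1.16 and C30C11.14, in that order.

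**Figure D4:**
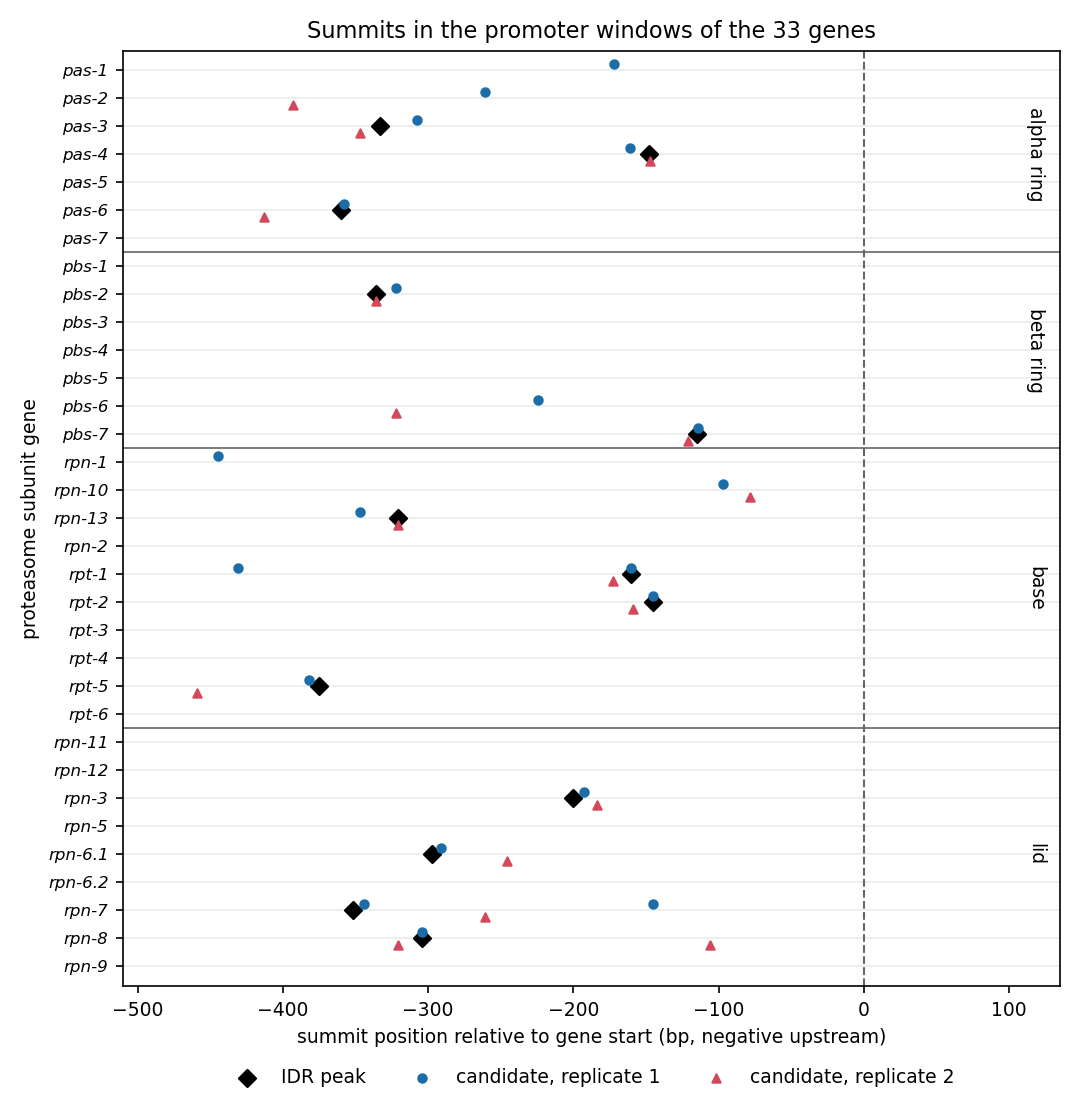
Positions of summits in the promoter window of each of the 33 genes, in bp from the gene start (dashed line), for IDR peaks (diamonds) and candidates of replicates 1 (circles) and 2 (triangles), grouped by module. All 13 IDR summits are upstream, against 93.7% over all pairs of a gene and a promoter peak, and 15 genes have no candidate in either replicate.

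Shared promoters were common among the members. The summit lay in the window of a second protein-coding gene at 9 of the 13 peaks (69.2%), against 295 of all 1188 promoter peaks (24.8%). These shares are not fully alike, because member peaks were reached through genes and the 1188 peaks were counted once each. Counted over the 1487 pairs of a gene and a promoter peak, the share would be higher than 24.8%. That share is not at hand. At all 9 the second gene was on the opposite strand, with the starts facing away from each other, as at 286 of the 295 shared peaks (96.9%). Such a peak cannot be given to either gene alone. Shared peaks occurred at 4 of 5 core and 5 of 8 cap peaks. Their median signal value was 241, against 134 for the 4 unshared member peaks, and over all promoter peaks the medians were 252 shared and 159 unshared.

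The rpt-2 summit (chromosome V, 6017814) lay 145 bp upstream of rpt-2 and 156 bp upstream of aps-1, a clathrin adaptor subunit gene, close to the middle of the 301 bp between the starts. That of rpn-3 (chromosome III, 8447153) lay 200 bp from rpn-3 and 244 bp from hsp-110, which encodes a chaperone. The pas-4 summit (chromosome I, 8728635) was 148 bp from pas-4 and 129 bp from rpb-3, an RNA polymerase II subunit gene. At these 3 promoters the summit stood within 25 bp of the midpoint between the starts.

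The pbs-2 summit (chromosome I, 12968616) was 336 bp from pbs-2 and 330 bp from eif-6, a translation initiation factor gene, again near the middle of a 666 bp promoter. The pbs-7 summit (chromosome I, 8696416) was 115 bp from pbs-7 and 187 bp from F39H11.1. The rpn-8 summit (chromosome I, 4175015) was 304 bp from rpn-8 and 241 bp from mrps-6, a mitochondrial ribosomal protein gene. The rpt-5 summit (chromosome I, 5743946) was 375 bp from rpt-5 and 234 bp from rad-8. The pas-6 summit (chromosome V, 5584703) was 360 bp from pas-6 and 430 bp from CD4.11. The rpn-7 summit (chromosome IV, 9316279) was 352 bp from rpn-7 but only 64 bp from F49C12.9. In all, 4 of the 9 shared summits were nearer to the proteasome gene and 5 to its neighbour. When a summit counted only for the closest gene start, 8 proteasome genes kept a peak, against 5.85% of all protein-coding genes.

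The 4 unshared peaks were those of rpn-6.1 (chromosome III, 6962298), rpn-13 (chromosome III, 6342249), pas-3 (chromosome I, 5106381) and rpt-1 (chromosome V, 11982557). The starts of rpn-6.1 and pas-3 also face an opposite-strand gene, at distances of 89 bp (F57B9.1) and 156 bp (use-1). Their summits lay beyond the downstream end of that gene's window. The upstream neighbours of rpn-13 and rpt-1 end 463 bp and 504 bp away on the same strand.

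The arrangement of genes differed between the members and the genome as annotated. A start less than 1000 bp from that of the next gene upstream, on the opposite strand, was found at 20 of the 33 proteasome genes (60.6%) and at 3617 of all protein-coding genes (18.1%). Of these 20 members 11 had an IDR peak, against 17.7% of all genes so arranged. A further 9 members had their next upstream gene on the same strand with a gap under 1000 bp, and 2 of them had a peak, against 6.36% of such genes. The 4 members in neither arrangement (pas-5, pbs-4, rpt-4 and rpt-6) had no peak, against 4.22% of such genes. By particle, 9 of 14 core and 11 of 19 cap genes had a close opposite-strand start, with peaks at 5 and 6 of them. The part of this arrangement in the count of members with a peak was not tested.

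**Figure D5:**
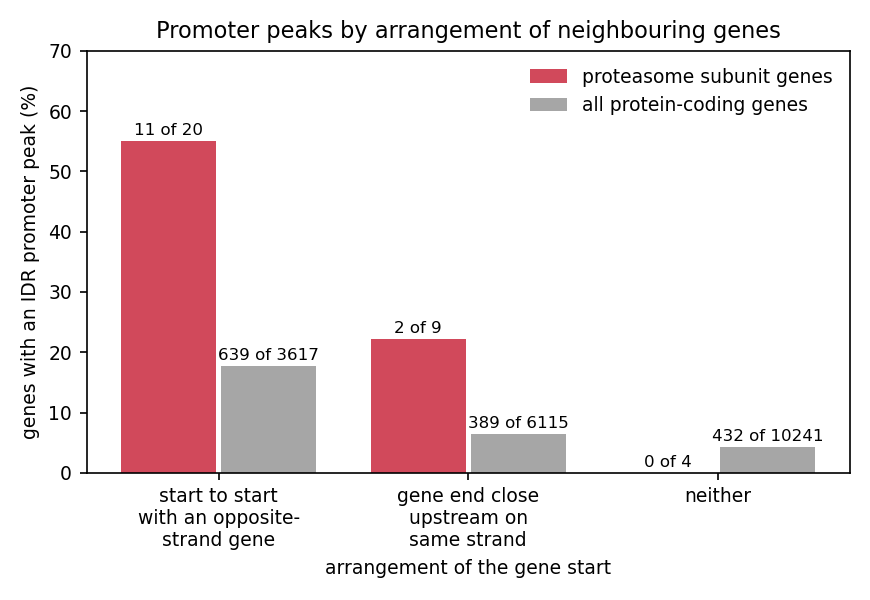
Percent of genes with an IDR promoter peak, by the arrangement of the gene start, for proteasome subunit genes (red, left) and all protein-coding genes (grey, right), with counts above the bars. Members exceed all genes where starts face away from each other within 1000 bp (11 of 20, against 17.7%). They also do so where the upstream gene is close on the same strand (2 of 9, against 6.36%). None of the 4 members in neither arrangement has a peak, against 4.22% of such genes.

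Of the 9 members that follow a gene on the same strand, 6 had a gap under 250 bp (pas-1, pbs-3, pbs-5, rpn-6.2, rpn-10 and rpn-11), and none of these 6 had an IDR peak. The 3 with longer gaps were rpn-13, rpt-1 and rpt-3, of which rpn-13 and rpt-1 had one. Over all protein-coding genes the shares were 5.65% for gaps under 250 bp and 6.94% for gaps from 250 bp. Many closely spaced C. elegans genes of one strand are transcribed together from one upstream promoter. Whether these members belong to such groups was not assessed.

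The 20 members without an IDR peak included pas-1, pas-2, pas-5 and pas-7 of the alpha ring, pbs-1, pbs-3, pbs-4, pbs-5 and pbs-6 of the beta ring, and 11 cap genes. Candidate regions, which include background, were in the window in both replicates at 16 of 33 members (48.5%), against 18.9% of all protein-coding genes. The pooled list had a candidate at 17 members, against 26.3% of all genes. In neither replicate was there a candidate at 15 members (45.5%), against 66.1% of all genes. These shares are over all 33 members and include the 13 with an IDR peak, all of which had candidates in both replicates. All 15 members without a candidate in either replicate were among the 20 without an IDR peak. The same share over all genes without an IDR peak is not at hand. The 3 members with candidates in both replicates but no IDR peak were pbs-6, rpn-10 and pas-2.

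The beta ring gene pbs-6 had 54.2 in replicate 1 (rank 2223) but 19.2 in replicate 2 (rank 29866), and 68.6 in the pooled list (rank 5773). Its candidate summits stood at -224 bp and -322 bp from the gene start in replicates 1 and 2, so they need not mark one site. Replicate 1 alone, at the size of the IDR list, gave pbs-6 a peak. The ubiquitin receptor gene rpn-10 had 29.7 and 29.1 in replicates 1 and 2 and 63.2 in the pooled list. The alpha ring gene pas-2 had 18.3 and 30.5 in replicates 1 and 2 and 38.9 in the pooled list. Its candidate summits stood at -261 bp and -393 bp in replicates 1 and 2, so they too need not mark one site. The rpn-10 values were near the medians of the candidate lists, and the pas-2 value in replicate 1 was near that list's minimum of 17.6. Candidates in replicate 1 alone were found at the scaffold gene rpn-1 (39.4) and at pas-1 (31.6), and rpt-3 had a candidate in the pooled list alone (34.9). The remaining 14 members had no candidate in any list, among them rpn-11, which encodes the deubiquitinating subunit of the lid, the scaffold gene rpn-2 and the ATPase gene rpt-6. Read depth is unknown, so the absence of a region in these lists does not show the absence of binding.

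The ATPase gene rpt-4 had no peak at its annotated gene start (chromosome II, 46216, minus strand), but a second transcript starts at 43662. An IDR peak with a signal value of 170 (rank 983) had its summit at 43844, which is 182 bp upstream of that transcript and 2372 bp inside the gene. It had 76.2 and 85.2 in replicates 1 and 2. Its summit also lay in the window of a transcript of nfyc-1. With transcript starts in place of gene starts, 14 members had a peak, against 7.9% of all protein-coding genes.

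The sequence words were then counted at the 13 member summits, within 50 bp. At least 1 of the 6 words occurred at 5 of the 13 (rpt-2, pas-4, pbs-2, pas-6 and rpt-1), against 36.1% of all IDR peaks and 45% of promoter peaks. The commonest was ACACTC, at pas-4, pbs-2 and pas-6, against 11.5% of IDR peaks and 16% of promoter peaks. ACGCGC occurred at rpt-2 and rpt-1 (8.97% of IDR peaks and 14.6% of promoter peaks), and ACGCAG at pas-6 alone (9.78% and 11.2%). GACGCA occurred at none of the 13 (9.16% of IDR peaks). The same held for CGTCTC (10.4% of IDR peaks) and likewise for the word AGAGAC (12% of IDR peaks). Among the 5 strongest member peaks 3 held one of the 6 words. Of these 5, pbs-7 (rank 600) held none and lay outside the strongest 20% of IDR peaks. Over all IDR peaks the share with a word was 61.9% in the strongest 20% and 20.7% in the weakest 20%. Mean GC content in these windows was 37.6% at members and 40.5% at promoter peaks.

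Words of the core bound by SKN-1, TGTCAT and TATCAT, were searched on both strands in the same windows. One or both occurred at 3 of 13 member summits (TGTCAT at rpt-2 and rpn-7, TATCAT at rpn-6.1), against 14.4% of IDR peaks and 11.2% of promoter peaks. In the whole promoter window TGTCAT occurred at 6 of the 13 members with a peak and 7 of the 20 without, against 28.6% of all protein-coding promoters. TATCAT occurred at 5 of the 13 and 3 of the 20, against 34.1% of all protein-coding promoters. A match is a description of these letters and not of a bound site.

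Genes that work with the proteasome were taken from a list of 24, and 8 of them (33.3%) had an IDR peak, against the 7.31% of all protein-coding genes given above. The strongest was that of cdc-48.1, which encodes the segregase that extracts ubiquitinated proteins, with 1139 and 1005 in replicates 1 and 2 (2144 in the IDR list, rank 20). Its paralog cdc-48.2 had no peak, and neither had the CDC-48 cofactor genes ufd-1, npl-4.1 and npl-4.2. The CDC-48 cofactor gene ufd-3 had 617 and 678 in replicates 1 and 2 (1284, rank 68), and the ubiquitin chain elongation factor gene ufd-2 had 138 and 125 (269, rank 510). Neither of these peaks was shared with a second gene.

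In the same list sel-1, a gene of the degradation pathway of the endoplasmic reticulum, had 483 and 508 in replicates 1 and 2 (989 in the IDR list, rank 122). The proteasome-associated deubiquitinase gene ubh-4 had 243 and 249 in replicates 1 and 2 (498, rank 272), in a window shared with algn-6. The ubiquitin-activating enzyme gene uba-1 had 116 and 121 in replicates 1 and 2 (247, rank 570). Peaks were also found at aip-1 (213, rank 718), shared with ddx-17, and, near the end of the list, at the polyubiquitin gene ubq-1 (102, rank 2280). No peak was found at skn-1, at png-1 and ddi-1, whose products process SKN-1 into its active form, at the shuttle factor genes rad-23 and ubql-1, or at dss-1, a small lid subunit gene that the naming rule leaves out. The other genes of the list without a peak were sel-11, usp-14, psmd-9, ecps-1, etc-1 and ubq-2.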

How the data were processed

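The authors deposited 4 peak lists on ce11, the WBcel235 sequence, per the labels and the text deposited beside the lists. Candidate regions were called on each replicate and on the pooled replicates with a control alignment, and 2586 peaks were retained by IDR from these 3 lists. They were the 2586 strongest pooled regions. Each list holds the authors' signal value and the deposited −log10 q-value. The p-value column is empty. The sources used here name no aligner, caller or version, and read depth is unknown.

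Summits (region start plus deposited offset) were assigned to gene starts of Ensembl release 115, after comparing chromosome lengths, and candidates of each replicate were matched to IDR summits within 100 bp. Sequences came from the RefSeq WBcel235 genome. Member genes, word lists and the list of 24 partner genes were chosen with earlier results of these data known, so every share is a description beside the same share over all protein-coding genes, and no enrichment test was made. All members with an IDR peak are named with values. Those without one are given by count, with values for members with a candidate region. Sequences are those of the 5 strongest peaks permitted by chromosome and annotation. rpn-6.1 was passed over because its window overlaps an untranslated region. Member peaks on the first chromosome are given without sequence. The assignment and matching functions were tested on simulated data. The alternatives were other windows, transcript starts, nearest starts, stricter peaks, either replicate alone, other matching distances and other word windows. Computations used Python 3.11.15, numpy 2.4.6, pandas 2.3.3 and matplotlib 3.10.9.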

Additional observations from a re-analysis of the deposited data

How the results depend on the processing

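With 1 group, no paired analysis was possible because there was no second group to pair with. The window from 250 bp upstream to 50 bp downstream left 5 proteasome genes with an IDR peak (2 core and 3 cap), 4 shared peaks, a median signal value of 683, a median summit position of -148 bp and 6 genes with candidates in both replicates. Counting only the closest gene start left 8 genes (3 core and 5 cap). Both the stronger 50% of IDR peaks and a −log10 q-value from 2 upward left 7 genes (3 core and 4 cap). Over all protein-coding genes the shares were 4.77% for the stronger 50% and 4.5% for the q-value limit. Of the 7 member peaks in the stronger 50%, 5 were shared. The share of shared peaks among all promoter peaks is not at hand for the narrow window or the stronger 50%. Using as many of the strongest candidates as there are IDR peaks left 9 genes with candidates in both replicates. No share over all genes is at hand for these 9 genes or for the 6 genes of the narrow window. Searching words within 25 bp left 3 peaks with a word, and the share of all IDR peaks within 25 bp is not at hand. With either replicate left out, 11 to 12 genes had a peak (4 to 5 core and 6 to 8 cap). Over all protein-coding genes the share was then 7.32% to 7.35%. The single-replicate medians were taken over all 13 members with an IDR peak, including those lost in that replicate. The median signal value was 69.7 to 84.8, on the scale of a single replicate, and the median summit position -304 to -261 bp. Wider windows and transcript starts kept the 3 gene counts within 1.5 times. Alternatives for the partner list and the arrangement were chosen after seeing the data. The narrow window left 5 partner genes, and either replicate left out gave 7 to 8. A limit of 500 bp left 12 members with a close opposite-strand start. The share of all protein-coding genes at that limit is not at hand. The median log2 ratio was -0.04 under both other matching rules. The narrow window kept pas-4, pbs-7, rpn-3, rpt-1 and rpt-2. Read depth and a control are not at hand, so weak peaks such as those of rpt-1 and rpn-7 cannot be given a counting error.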

Other observations

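By chromosome, IDR peaks were found at 6 of 10 members on I (9.83% of all protein-coding genes there), 0 of 7 on II (7.16%), 3 of 8 on III (9.55%), 1 of 3 on IV (7.41%) and 3 of 5 on V (5.55%). With 7 members, the count of 0 on II is near the share of all genes there. The members on II were pas-7, pbs-3, rpn-5, rpn-9, rpn-11, rpn-12 and rpt-4, the last with a peak at its second transcript. No member lies on X. Differences between chromosomes were not tested.

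Among the 20 members without an IDR peak, the closest IDR summit lay between 1075 bp (pbs-6) and 228237 bp (rpt-6) away from the annotated start, with a median distance of 13538 bp. The same distance over all protein-coding genes is not at hand, so these values are not read as particular to the members. The lid gene rpn-12 and the shuttle factor gene rad-23 share a promoter of 395 bp between opposite-strand starts, and neither had an IDR peak. The starts of rpn-5 and the cohesin gene scc-1 lie 294 bp apart, likewise without one. A close opposite-strand start was therefore present at 9 members that had no peak, with a median distance of 456 bp between starts, against 416 bp at the 11 that had one.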
